A study of Mus musculus with 217 samples.

Results

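The 10 genes described here encode parts of the BMP and TGF-beta pathway in endothelial cells (ECs). They were chosen by name: the ligands Bmp6 and Tgfb1, the receptors Acvrl1, Bmpr2 and Tgfbr2, the co-receptor Eng, the inhibitory SMADs Smad6 and Smad7, and the target genes Id1 and Id3. They are 10 of the 52550 gene rows counted, and all 10 passed the low-count filter in brain, lung and heart. RNA was pulled from whole tissue of adult RiboTagEC mice (Cdh5CreERT2/+; Rpl22HA/+, strain C57BL/6J) with an antibody against the HA tag on ribosomes, so that a level is that of ribosome-bound mRNA. The inducible Cre was driven by the Cdh5 (VE-cadherin) locus, so the tag marks cells in which that locus was active at induction. Every mouse, controls included, carried both alleles and had been given 5 mg tamoxifen by gavage 4 times. The treated mice received 10 mg per kg lipopolysaccharide (LPS), a bacterial endotoxin, by intraperitoneal injection and were killed at 6, 24, 48, 72 or 168 hr. The controls, at 0 hr, are labelled as control only. After 18 libraries with under 3% of reads on genes were left out, 80 of 98 libraries remained. Brain and heart had 5, 5, 4, 6, 4 and 4 libraries at 0, 6, 24, 48, 72 and 168 hr, and lung had 4, 4, 2, 6, 4 and 4.

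BMP and TGF-beta ligands bind pairs of type I and type II receptor kinases at the cell surface, and the type I receptor phosphorylates SMAD proteins that enter the nucleus and change transcription. In ECs the type I receptor ALK1, encoded by Acvrl1, acts with the type II receptor encoded by Bmpr2 and with the co-receptor endoglin, and it signals mainly through SMAD1, SMAD5 and SMAD9 to genes such as Id1, Id3 and Smad6. Inherited loss of ENG or ALK1 causes hereditary hemorrhagic telangiectasia, and mutations of BMPR2 cause pulmonary arterial hypertension. TGF-beta itself binds the type II receptor encoded by Tgfbr2.

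The kept brain libraries held 7226796 to 32891759 counts on genes, the heart libraries 8136031 to 33050750 and the lung libraries 284457 to 43417945. The share of reads on genes was 53.4% to 70.0% in brain and 43.7% to 68.9% in heart, against 3.41% to 61.0% in lung. All 12 endothelial markers were detected in each tissue at 0 hr, with a summed level of 3133 to 6338 CPM (counts per 1000000 counts on genes) in brain, 13324 to 16428 in lung and 13193 to 14390 in heart. Markers of neighbouring cells were present too, with 1157 to 6443 CPM of 6 glial and 1260 to 4565 of 5 neuronal markers in brain. In lung, 5 alveolar epithelial markers summed to 2078 to 8120 CPM at 0 hr, and in heart 5 cardiomyocyte markers summed to 2948 to 5908. In bulk RNA of this kind, fewer cells of a type and less RNA per cell cannot be told apart.

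Some libraries stood apart from their labels or from the rest of their group. The brain library 6 hr replicate 6 and the heart library 6 hr replicate 5 had 3 of 4 response genes (Selp, Icam1 and Ccl2) near their 0 hr levels. Selp, which encodes the LPS-inducible adhesion molecule P-selectin, was at 2.77 log2 CPM in that heart library, against 8.86 to 9.89 in the other 6 hr hearts and 1.62 to 2.14 at 0 hr. In brain, Selp was at -0.34 in replicate 6, against 5.91 to 6.99 in the other 6 hr libraries and -2.41 to -0.17 at 0 hr. Lcn2, an acute-phase gene, lay between, at 8.17 in the brain library against 2.46 to 5.21 at 0 hr and 12.23 to 12.99 in the other 6 hr libraries, and at 5.59 in the heart library against 2.93 to 4.29 and 11.60 to 12.76. By the names of the deposited files both belong to library series 1, as does the lung library 6 hr replicate 4. Less the tissue letter, these names hold the time but no animal number, so that they share a mouse is inferred. Calls on the 10 genes in brain and heart at 6 hr are therefore given with and without these libraries, a choice made after seeing the data. In lung at 6 hr, replicate 4 had at least 10 counts on only 183 genes, and replicates 1 and 2 had 6.93% and 8.12% of reads on genes against 33.9% in replicate 3. A single gene, Gm42418, took 68.6% of the gene counts in replicate 4, 51.4% in replicate 2 and 28.5% in replicate 1. In brain and heart libraries it took 0.05% to 1.62%. In lung controls 1 to 4 it took 15.5%, 15.6%, 10.2% and 0.93%. It also took 57.6% in lung 48 hr replicate 1 and 32.4% in lung 72 hr replicate 1.

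The promoter windows of Id3, Smad6 and Eng are shown because Id3 and Smad6 fell together in lung and Eng fell in heart. Each runs from 250 bases before to 20 bases after the RefSeq start on GRCm38.p6, 5′ to 3′ on the strand of the gene. Capitals mark matches on either strand to the BMP-SMAD motif GGCGCC, the palindromic SMAD box GTCTAGAC or the shorter SMAD box CAGAC. The Id3 window lies at chr4:136143572-136143841 on the plus strand, Smad6 at chr9:64022040-64022309 on the minus strand and Eng at chr2:32646345-32646614 on the plus strand.
Id3: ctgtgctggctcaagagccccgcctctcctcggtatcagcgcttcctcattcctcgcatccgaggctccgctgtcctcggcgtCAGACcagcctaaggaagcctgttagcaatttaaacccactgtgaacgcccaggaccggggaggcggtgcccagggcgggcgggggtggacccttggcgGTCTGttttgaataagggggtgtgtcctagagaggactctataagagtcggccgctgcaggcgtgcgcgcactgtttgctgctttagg
Smad6: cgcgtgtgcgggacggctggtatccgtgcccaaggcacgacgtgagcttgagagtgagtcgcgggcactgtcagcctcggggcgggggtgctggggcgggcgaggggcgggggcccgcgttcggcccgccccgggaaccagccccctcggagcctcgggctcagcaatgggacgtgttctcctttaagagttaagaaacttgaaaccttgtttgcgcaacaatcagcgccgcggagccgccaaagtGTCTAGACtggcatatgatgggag
Eng: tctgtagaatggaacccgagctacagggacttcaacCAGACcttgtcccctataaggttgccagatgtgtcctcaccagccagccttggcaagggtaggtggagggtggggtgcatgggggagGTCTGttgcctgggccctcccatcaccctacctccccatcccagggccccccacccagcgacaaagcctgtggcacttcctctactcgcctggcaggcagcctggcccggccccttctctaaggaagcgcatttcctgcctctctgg

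The Smad6 window holds the palindrome, which 0.18% of 32851 mouse promoters of the same length hold on either strand. The Id3 and Eng windows each hold 2 matches to CAGAC, and 45.43% of those promoters hold at least 1. None of the 3 holds GGCGCC, found in 10.44% of promoters and, of the 7 members whose promoter was at hand, in Bmpr2. These are matches of letters in 1 window and not measured binding sites.

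At 0 hr the target genes were the most abundant of the 10 per unit of transcript length in brain, while receptors and co-receptor differed in rank between tissues. On the log2 FPKM scale, which is log2 CPM less the log2 of the exon length in kilobases (GENCODE M21), Id1 stood at 8.00 ± 0.38 in brain (SD, n = 5), 9.01 ± 0.41 in lung (n = 4) and 8.83 ± 0.17 in heart (n = 5). ID1 and ID3 are helix-loop-helix proteins that bind and block other transcription factors of that class. Id3 stood at 7.16 ± 0.45 in brain, 7.93 ± 0.70 in lung and 8.20 ± 0.08 in heart. In brain the order went on with Eng at 6.15, Acvrl1 at 5.97 and Bmp6 at 5.80, which lay closer to each other than their SD, then Bmpr2 at 4.19 and Tgfbr2 at 3.72, also within their SD. Smad7 at 2.85 and Smad6 at 2.60 did not differ beyond their spread, and Tgfb1 was lowest at 1.98 ± 0.52.

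The order was different in lung and heart. In lung, Acvrl1 reached 8.72 ± 0.22 log2 FPKM, next to Id1 and within its spread. It was followed by Id3 and then by Smad6 at 6.60, Bmpr2 at 6.33, Eng at 5.37, Bmp6 at 4.85 and Smad7 at 3.76, each within the larger SD of its neighbour. Tgfb1 at 1.68 ± 1.65 and Tgfbr2 at 1.44 ± 1.03 were last. In heart, Eng reached 8.61 ± 0.23, within the spread of Id1 and above Id3, and Bmp6 at 6.34 stood beside Acvrl1 at 6.29. Smad7, Tgfbr2, Bmpr2, Tgfb1 and Smad6 followed between 4.83 and 4.14, with neighbours in that order no further apart than their SD.

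**Figure D1:**
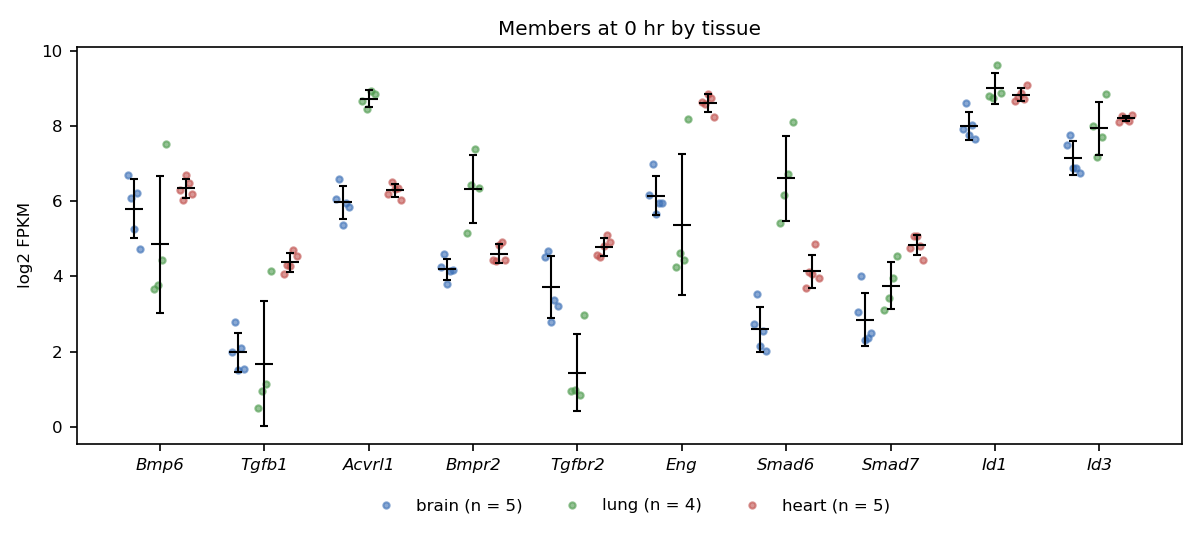
Baseline level of the 10 genes in log2 FPKM (vertical axis) in brain, lung and heart ECs at 0 hr, with 1 point per library and the mean and SD of each group. Acvrl1 in lung (8.72) and Eng in heart (8.61) sit beside Id1, while Tgfbr2 and Tgfb1 are lowest in lung.

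Between tissues, 7 of the 10 genes differed in each of the 3 pairs at 0 hr by edgeR's quasi-likelihood test with Benjamini-Hochberg adjustment over all genes at a threshold of 0.05. Most genes differed at 0 hr in the same tests, 64.3% of those tested between brain and lung, 54.8% between brain and heart and 61.1% between lung and heart, so the members' count was near the background. These fits treated tissues of the same mouse, as read from file names, as independent. From here on, levels within a gene are in log2 CPM and differences are log2 fold changes with SE. Acvrl1 was at 10.53 to 11.03 in the 4 lung libraries, at 7.47 to 8.69 in the 5 brain libraries and at 8.13 to 8.61 in the 5 heart libraries. Lung thus lay above both other tissues without overlap, by 2.77 ± 0.25 over brain (adjusted p = 3.3e-07, edgeR) and 2.41 ± 0.25 over heart (adjusted p = 2.6e-06). Brain and heart differed in Acvrl1 by -0.36 ± 0.23, which did not pass (adjusted p = 0.20).

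Bmpr2 and Smad6 were also highest in lung. Bmpr2, the type II partner of ALK1, was at 9.33 to 11.55 in lung, 7.98 to 8.76 in brain and 8.57 to 9.09 in heart, and lung was higher than brain by 2.33 ± 0.35 and than heart by 1.89 ± 0.34. Smad6, which encodes an inhibitory SMAD that mainly restrains BMP signalling, was at 7.10, 7.86, 8.39 and 9.79 in lung. It was at 3.70 to 5.22 in brain and 5.37 to 6.53 in heart, so that lung was 4.28 ± 0.48 above brain and 2.61 ± 0.46 above heart, the largest of the members' differences between brain and lung. Brain was below heart in Smad6 by 1.66 ± 0.43. All 4 of these lung differences passed.

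Tgfbr2 ran the other way. It was lowest in lung at 3.88, 3.97, 4.02 and 6.01, against 5.83 to 7.71 in brain and 7.55 to 8.14 in heart. Lung was below heart by 3.36 ± 0.47 (adjusted p = 2.9e-05) and below brain by 2.15 ± 0.43 (adjusted p = 0.00048, edgeR), and brain was below heart by 1.21 ± 0.39 (adjusted p = 0.017), a difference that was 1.05 and did not pass without brain replicate 3. The brain difference from heart also did not pass without library series as a covariate or with the left-out libraries added. The brain difference from lung includes 1 overlapping library, lung replicate 4, in which 56.2% of reads fell on genes.

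Eng and Tgfb1 were highest in heart. Eng, the co-receptor that presents BMP9 and BMP10 to ALK1, was at 10.26 to 10.87 in heart and 7.67 to 9.02 in brain, a difference of -2.61 ± 0.60 for brain against heart (adjusted p = 0.0018, edgeR). In lung, Eng was at 6.26, 6.46 and 6.63 in 3 libraries and at 10.19 in replicate 4, the lung control with the largest share of reads on genes (56.2%). Lung was below heart by 2.71 ± 0.70, and the difference ran from -4.27 to -1.85 over the alternatives. Without replicate 4 lung was below heart by 4.18, and brain also passed as above lung by 1.67. Tgfb1, which encodes the ligand TGF-beta 1, was at 6.40 to 7.03 in heart against 3.85 to 5.12 in brain, lower in brain by 2.53 ± 0.54 and in lung by 2.25 ± 0.61. Without lung replicate 4, lung was below heart by 3.49 and below brain in Tgfb1, with a brain-to-lung difference of 1.06 (adjusted p = 0.0048, edgeR), where the fit with it had given -0.28 ± 0.56. Smad7 was also highest in heart, above brain by 2.02 ± 0.31 and above lung by 1.06 ± 0.33, and lung was above brain by 0.95 ± 0.32, which did not pass without lung replicate 3 or 4. Id1 and Id3 were lower in brain than in heart by 0.86 ± 0.25 and 1.13 ± 0.25, and lower than in lung by 1.07 ± 0.27 and 0.83 ± 0.26, the last being 0.55 without lung replicate 4, when Id3 in lung also passed as below heart by 0.57. Bmp6, a BMP ligand known in ECs as the signal to the liver for hepcidin, passed in no pair. It was at 5.62, 5.74, 6.40 and 9.48 in lung, the last in replicate 4, and at 8.00 to 8.65 in heart. Without that library Bmp6 in lung passed as below brain by 1.85 and below heart by 2.36 (adjusted p = 0.00058 and 8.3e-05, edgeR), against differences of 0.35 ± 0.64 for brain against lung and -1.01 ± 0.68 for lung against heart with it. With at least 20% of reads on genes, the differences between lung and heart in Tgfb1 and Smad7 were -1.45 and -0.67 and did not pass (adjusted p = 0.052 and 0.12, edgeR). With the mouse read from file names as a block, those of Id3 and Smad7 between brain and lung were -0.51 and -0.62 and did not pass (adjusted p = 0.093 and 0.15, edgeR).

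**Figure D2:**
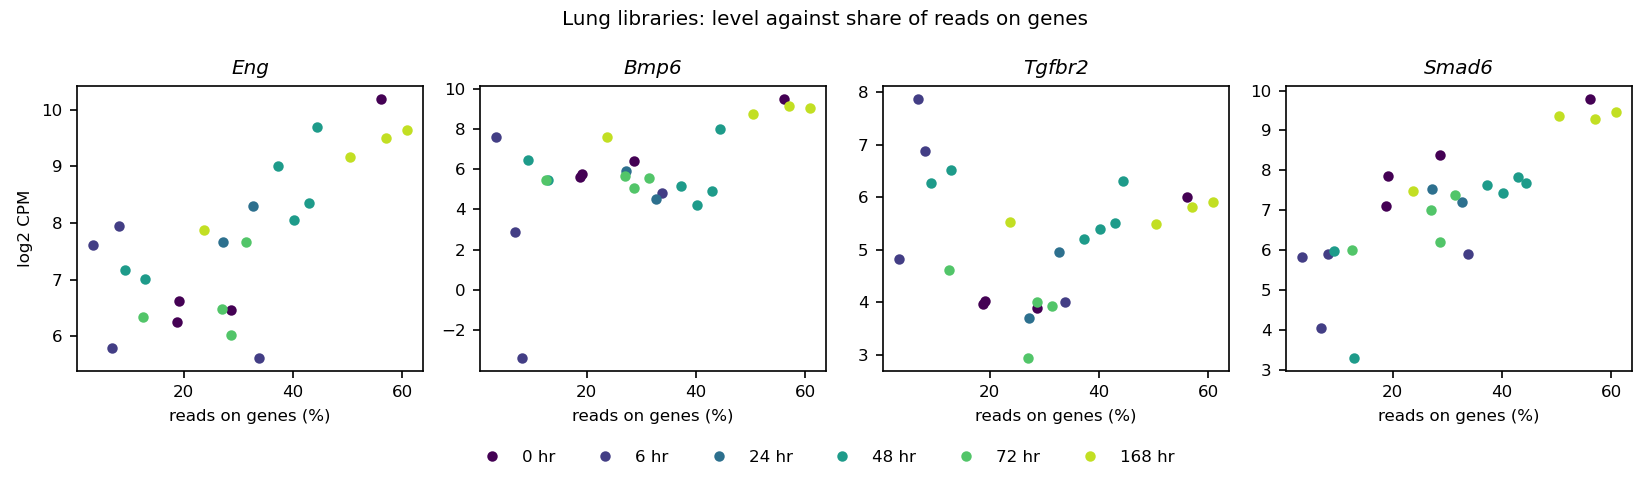
Level of Eng, Bmp6, Tgfbr2 and Smad6 in log2 CPM (vertical axes) against the percent of reads on genes (horizontal axes) in the 24 kept lung libraries, coloured by time. The 4 libraries with at least 50% of reads on genes had Bmp6 at 8.74 to 9.48 and Smad6 at 9.28 to 9.79, above every other lung library.

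Some members in lung were highest in the libraries with the largest share of reads on genes. The 4 lung libraries with at least 50% of reads on genes were 0 hr replicate 4 and 3 of the 4 libraries at 168 hr. Their Bmp6 lay at 8.74 to 9.48, against at most 7.97 in the other 20, and their Smad6 at 9.28 to 9.79 against at most 8.39. Id3 showed the same separation, at 9.69 to 10.07 against at most 9.14, as did Smad7, at 6.47 to 7.29 against at most 6.18. Eng did not separate in full, at 9.17 to 10.19 against 5.62 to 9.70, nor did Acvrl1, Bmpr2, Id1, Tgfbr2 and Tgfb1. Their medians were still higher in those 4 libraries, at 9.57 against 7.39 for Eng and 6.09 against 3.66 for Tgfb1. For Bmpr2 they were 10.74 against 9.32, for Tgfbr2 5.86 against 4.89, for Acvrl1 10.83 against 9.98 and for Id1 9.35 against 8.98. The part of this share in the lung results was not tested beyond the fit limited to libraries with at least 20% of reads on genes.

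**Figure D3:**
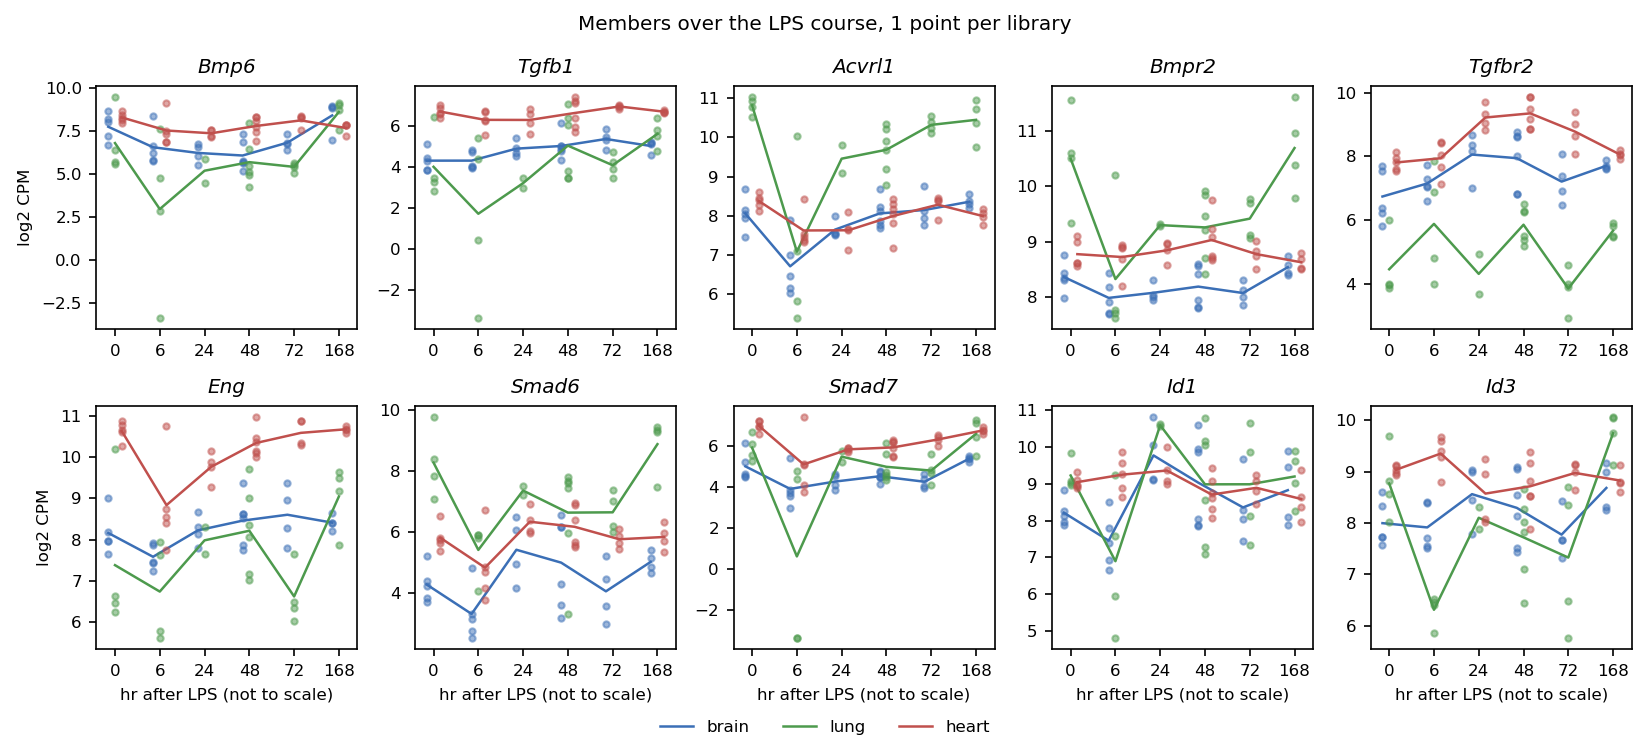
Level of each of the 10 genes in log2 CPM (vertical axes) at 0, 6, 24, 48, 72 and 168 hr after LPS (horizontal axes), with 1 point per library, coloured by tissue, and lines through the group means. Points at -3.35 are lung 6 hr libraries with 0 counts on the gene, and the 6 hr group in heart has 1 library near 0 hr for Eng and Smad7.

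In heart ECs Eng, Acvrl1 and Smad7 fell at 6 hr after LPS, Tgfbr2 rose at 24 and 48 hr, and no member passed at 72 or 168 hr. At 6 hr 3 of 10 members were lower and 0 higher, where 20.3% of all genes tested were lower and 22.4% higher. No member was higher at an unadjusted p under 0.05, by DESeq2 or by limma-voom either. The median log2 fold change of the 10 was -0.47, against -0.05 over all genes. Eng was at 10.26 to 10.87 at 0 hr and at 7.74, 8.54, 8.41, 8.74 and 10.75 at 6 hr. The last of these values is replicate 5, the library that resembled 0 hr, and the other 4 lay below every control. The fall was by 1.53 ± 0.31 on the log2 scale (adjusted p = 0.00079, edgeR), and by 2.16 without that library.

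Smad7, which encodes the inhibitory SMAD that TGF-beta induces in negative feedback, was at 6.93, 7.25, 7.24, 6.99 and 6.62 in heart at 0 hr. At 6 hr it was at 4.10, 5.15, 3.80 and 5.11 in 4 libraries and at 7.44 in replicate 5. It fell by 1.38 ± 0.41 (adjusted p = 0.0096, edgeR) and by 2.46 without that library. Acvrl1 was at 8.13 to 8.61 at 0 hr and at 7.38, 7.53, 7.33, 7.47 and 8.42 at 6 hr, again with replicate 5 alone among the controls. It fell by 0.70 ± 0.21 (adjusted p = 0.013, edgeR), and by 0.95 without it. Within library series 2, which holds 3 controls and the other 4 libraries, the differences were -2.27 for Eng, -2.41 for Smad7 and -0.91 for Acvrl1. Within series 1, which holds 2 controls and replicate 5, they were 0.12, 0.35 and -0.03.

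Without replicate 5, Smad6 and Bmp6 also fell in heart at 6 hr, so that 5 of 10 members were lower, where 30.5% of all genes were lower and 27.8% higher. Smad6 was at 5.37 to 6.53 at 0 hr and at 4.15, 4.70, 3.76 and 4.85 in the 4 remaining libraries, with a fall by 1.44. With all 5 libraries its change was -0.77 ± 0.34 (adjusted p = 0.072, edgeR), and it passed at -0.97 without control 1. Bmp6 changed by -0.54 ± 0.34 with all libraries and by -1.29 without replicate 5. Id1, Id3, Bmpr2, Tgfbr2 and Tgfb1 passed in neither fit, with Id1 at 0.20 ± 0.27 and Id3 at 0.29 ± 0.20. The 12 endothelial markers summed to 13193 to 14390 CPM in heart at 0 hr (median 13849) and to 5086 to 14540 at 6 hr (median 6187). The list as a sum was thus lower in most 6 hr libraries, and its part in these falls was not tested. The 5 cardiomyocyte markers summed to 2838 to 5180 at 6 hr against 2948 to 5908 at 0 hr, the 6 neutrophil markers to 0.46 to 55.8 against 0.43 to 1.01, and the 5 platelet markers to 4.19 to 100.2 against 4.61 to 8.71. Their part in these falls was not tested.

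At 24 and 48 hr Tgfbr2 rose in heart ECs. It was at 7.55 to 8.14 at 0 hr, at 8.84, 9.03, 9.31 and 9.69 at 24 hr, and at 8.87 to 9.86 with a median of 9.32 in the 6 libraries at 48 hr. Neither later group overlapped the controls. The rise was 1.16 ± 0.28 at 24 hr (adjusted p = 0.0090, edgeR) and 1.40 ± 0.25 at 48 hr (adjusted p = 0.0020). Within series 1 and 2 it was 1.27 and 1.06 at 24 hr, and 1.94 and 0.90 at 48 hr. These series each held 1 library at 24 hr and 2 at 48 hr, and series 4, with 2 at each time, had no controls. Without 24 hr replicate 2 the rise at 24 hr did not pass, with changes from 1.06 to 1.27 over the libraries left out. Fibroblast markers, 6 in all, summed to 276 to 641 CPM at 0 hr, 511 to 870 at 24 hr and 749 to 1472 at 48 hr, and their part in the rise was not tested.

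Eng remained lower in heart at 24 hr, at 9.28 to 10.14 in 4 libraries, all below the controls. The change was -1.10 ± 0.36 (adjusted p = 0.040, edgeR). Within series 1 and 2, with 1 library at 24 hr in each, it was -0.48 and -1.35. It did not pass without any 1 of controls 3, 4 and 5 and the 4 libraries at 24 hr, with changes from -1.25 to -0.95 over all 9. Nor did it pass without library series as a covariate, with a replicate block or with the left-out libraries added. Thus at 24 hr 1 member was higher and 1 lower, where 9.07% and 7.11% of all genes were, and at 48 hr 1 was higher and 0 lower, where 3.08% and 1.11% were. At 24 hr 4 members were lower at an unadjusted p under 0.05, 3 by DESeq2 and 1 by limma-voom. At 48 hr 1 member was lower at an unadjusted p under 0.05, and 0 by DESeq2 or limma-voom. Without 6 hr replicate 5, 1 member was higher and 4 lower at 24 hr, where 2125 and 2032 of 15990 genes were. In that fit 1 was higher and 1 lower at 48 hr, where 858 and 447 were. Smad7 lay at 5.74 to 5.93 at 24 hr and 5.47 to 6.33 at 48 hr, below every control in both, but its changes of -1.16 ± 0.46 and -1.02 ± 0.39 did not pass (adjusted p = 0.080 and 0.14, edgeR). At 72 and 168 hr no member passed in heart by edgeR, DESeq2 or limma-voom, where 0.275% and 0% of all genes did by edgeR, and 1 and 0 had an unadjusted p under 0.05. Tgfbr2 was still at 8.08 to 9.39 at 72 hr, with a change of 0.89 ± 0.26 that passed, at 1.07, without 72 hr replicate 1, and was at 7.93 to 8.21 at 168 hr.

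In brain ECs Acvrl1 and Smad7 fell at 6 hr, Bmp6 fell and Tgfbr2 rose at 24 and 48 hr, and Tgfb1 rose at 48 and 72 hr. At 6 hr 2 of 10 members were lower and 0 higher, where 2.23% and 4.21% of all genes were, and 1 was higher at an unadjusted p under 0.05, 1 by DESeq2 and 0 by limma-voom. Acvrl1 was at 8.15, 8.69, 7.47, 8.04 and 7.94 at 0 hr, and at 6.03, 6.47, 6.16 and 7.01 in 4 libraries and 7.89 in replicate 6 at 6 hr. Again the library that resembled 0 hr was the only one inside the range of the controls. Acvrl1 fell by 1.15 ± 0.23 (adjusted p = 0.0028, edgeR) and by 1.41 without that library, and the fall passed under every alternative and with any 1 library left out. Within series 1, with replicate 6 as the only 6 hr library, it was -0.53, and within series 2 it was -1.40.

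Smad7 was at 4.49 to 6.18 in brain at 0 hr and at 3.01, 3.73, 3.58, 3.87 and 5.44 at 6 hr. It fell by 0.88 ± 0.25 (adjusted p = 0.032, edgeR) and by 1.25 without replicate 6. The fall did not pass without any 1 of controls 2 and 5 and of replicates 1, 2, 3 and 4 at 6 hr. Changes ran from -1.25 to -0.67 over all 10. The fall also did not pass without library series as a covariate (adjusted p = 0.20, edgeR). Without replicate 6, Tgfbr2 rose by 1.00 and Bmp6 fell by 1.35, so that 3 members were lower and 1 higher, where 6.71% and 7.63% of all genes were. With all libraries they changed by 0.75 ± 0.25 and -0.95 ± 0.39 (adjusted p = 0.074 and 0.17, edgeR). The 12 endothelial markers summed to 2042 to 4146 CPM at 6 hr against 3133 to 6338 at 0 hr, and the 6 glial markers to 2589 to 7130 against 1157 to 6443. Their part in the falls was not tested.

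Bmp6 was at 8.65, 8.04, 7.22, 8.18 and 6.70 in brain at 0 hr. It was at 6.78, 5.55, 6.07 and 6.57 at 24 hr and at 5.19 to 7.34 with a median of 5.73 at 48 hr. It fell by 1.87 ± 0.46 at 24 hr (adjusted p = 0.011, edgeR) and by 1.80 ± 0.39 at 48 hr (adjusted p = 0.0047). Only the lowest control, replicate 5, lay within the range of the 24 hr libraries. The fall at 48 hr passed under every alternative, and the one at 24 hr failed in 2 of them, 1 of which had no library series as a covariate. Within series 1 and 2 the differences were -1.57 and -1.81 at 24 hr and -2.08 and -1.69 at 48 hr. Each of these series held 1 library at 24 hr and 2 at 48 hr. At 168 hr Bmp6 was at 6.96, 8.97, 8.84 and 8.91, a change of 0.19 ± 0.47 from 0 hr. The 5 neuronal markers summed to 1260 to 4565 CPM at 0 hr (median 3292), 603 to 4369 at 24 hr (972) and 658 to 2834 at 48 hr (984). The 6 glial markers summed to medians of 5678, 2027 and 1377 CPM at these times, and the part of both lists in the fall was not tested.

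Tgfbr2 was at 7.56, 7.71, 5.83, 6.40 and 6.24 in brain at 0 hr, at 8.37, 7.02, 8.16 and 8.69 at 24 hr, and at 6.81 to 8.77 with a median of 8.33 at 48 hr. The 0 hr libraries fall into a higher pair from series 1 and a lower group from series 2, and both later groups overlapped the pair. The rise was 0.85 ± 0.27 at 24 hr (adjusted p = 0.044, edgeR) and 0.90 ± 0.25 at 48 hr (adjusted p = 0.017). At 24 hr it did not pass without any 1 of the 5 controls and of replicates 1, 2 and 5, with changes from 0.76 to 0.98, and at 48 hr this held for replicate 3 of that time alone. The rise at 24 hr also did not pass without library series as a covariate, with a replicate block or with the left-out libraries added. That at 48 hr did not pass with a replicate block. Within series 1 and 2 the differences were 0.74 and 0.86 at 24 hr, with 1 library in each, and 0.70 and 0.65 at 48 hr. The 6 fibroblast markers summed to 664 to 1992 CPM at 0 hr, 1561 to 5028 at 24 hr and 670 to 5834 at 48 hr, and their part in the rise was not tested.

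Tgfb1 was at 3.85 to 5.12 in brain at 0 hr, at 4.34 to 6.14 with a median of 4.95 at 48 hr, and at 4.85, 5.33, 5.47 and 5.84 at 72 hr. It rose by 0.76 ± 0.25 at 48 hr (adjusted p = 0.045, edgeR) and by 1.09 ± 0.28 at 72 hr (adjusted p = 0.022), with 1 control above the lowest 72 hr library. It did not pass without any 1 of controls 1, 3 and 5 at either time, of replicates 1 and 4 at 48 hr and of replicates 2 and 5 at 72 hr, with changes from 0.51 to 0.91 at 48 hr and 0.95 to 1.23 at 72 hr. The rise passed at neither time without library series as a covariate, and not at 48 hr by limma-voom. Within series 1 and 2 the differences were 0.80 and 0.85 at 48 hr and 0.75 and 1.04 at 72 hr, where series 1 held 1 library. The 6 macrophage and microglial markers summed to 47.5 to 175 CPM at 0 hr, 58.7 to 595 at 48 hr and 104 to 515 at 72 hr, and their part in the rise was not tested.

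Counted over brain, 1 member was higher and 1 lower at 24 hr, where 6.52% and 4.66% of all genes were. At 48 hr 2 were higher and 1 lower, where 8.11% and 6.12% were. At 72 hr 1 of 10 passed, where 3.53% of all genes did, and at 168 hr 0 did, where 0% of all genes did, with 0 at an unadjusted p under 0.05, by DESeq2 or by limma-voom. Bmpr2, Eng, Id3 and Smad6 passed at no time in brain. Id1 lay at 9.09, 9.12, 10.04 and 10.81 at 24 hr, above every control at 7.87 to 8.83, but its change of 0.74 ± 0.37 with library series in the fit did not pass (adjusted p = 0.19, edgeR).

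**Figure D4:**
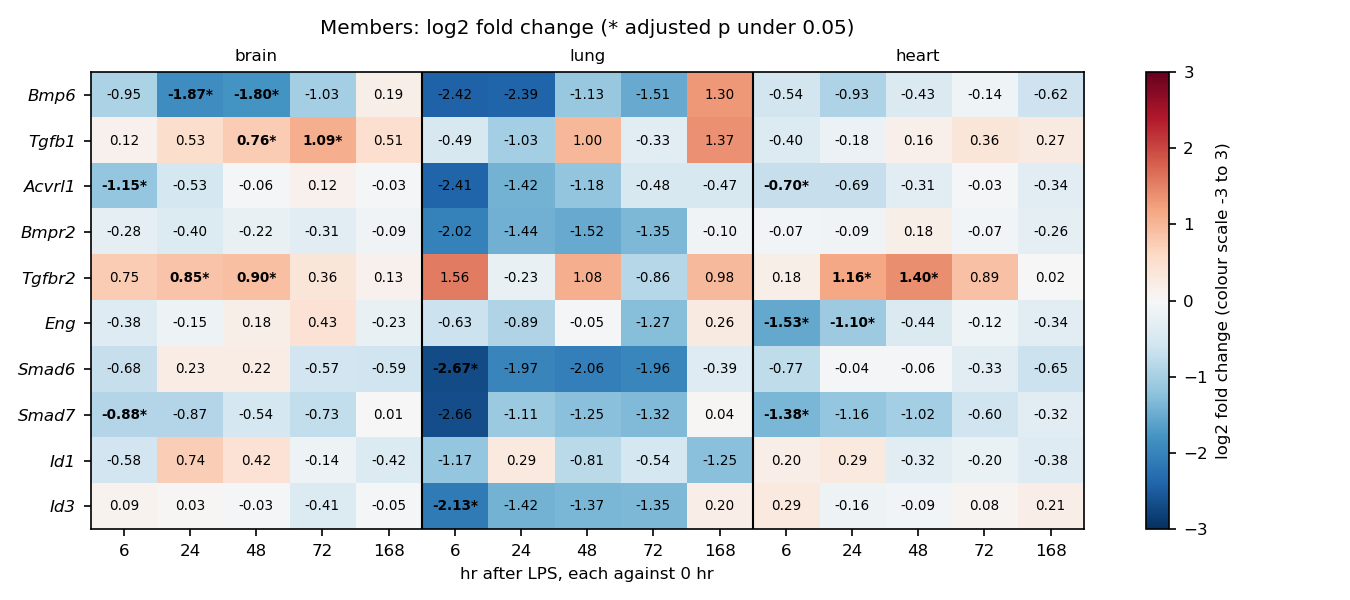
Log2 fold change against 0 hr of the 10 genes (rows) at 6, 24, 48, 72 and 168 hr in brain, lung and heart (columns), as colour with the value printed, and a star where the adjusted p was under 0.05. Tgfbr2 was higher at 24 and 48 hr in brain and heart, Eng was lower in heart at 6 and 24 hr, and the most negative values are those of lung at 6 hr.

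In lung ECs Id3 and Smad6 fell at 6 hr, and no member passed later. At 6 hr 2 of 10 members were lower and 0 higher, where 2.27% and 2.56% of all genes were, with 1 higher at an unadjusted p under 0.05, 1 by DESeq2 and 0 by limma-voom. The median change of the 10 was -2.07, while the median over all genes was itself -0.42 under TMM scaling and -0.11 under RLE scaling. Id3 was at 8.83, 8.01, 8.56 and 9.69 at 0 hr and at 5.86, 6.51, 6.47 and 6.40 at 6 hr, with no overlap. It fell by 2.13 ± 0.56 (adjusted p = 0.024, edgeR). Smad6 was at 4.06, 5.90, 5.90 and 5.82 at 6 hr against 7.10 to 9.79 at 0 hr, also with no overlap, and fell by 2.67 ± 0.68 (adjusted p = 0.022, edgeR). Within series 1 and 2 the differences were -2.86 and -2.01 for Id3 and -2.63 and -2.84 for Smad6. Those of series 1 compare 1 library at 6 hr, replicate 4 with 284457 counts, with 2 controls.

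These 2 falls rest on thin 6 hr libraries. Without replicate 4 they were by 1.83 and 2.47 and did not pass (adjusted p = 0.051 and 0.053, edgeR), nor did they without replicate 1 or without control 2 or 3. With only libraries of at least 20% of reads on genes, which leaves replicate 3 alone at 6 hr and takes its spread from the other groups, they were by 1.85 and 2.65 (adjusted p = 0.27 and 0.16, edgeR). Replicate 3, the deep 6 hr library with 40128330 counts, lay below every control in both genes. The 12 endothelial markers summed to 394 to 13700 CPM in lung at 6 hr against 13324 to 16428 at 0 hr, and the 6 neutrophil markers to 3.5 to 2672 against 29.5 to 156. Their part in the falls was not tested.

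The other members could not be followed well in lung at 6 hr. Acvrl1 was at 7.09, 5.39, 10.04 and 5.82, all below the controls at 10.53 to 11.03, with a change of -2.41 ± 0.78 (adjusted p = 0.066, edgeR). Smad7 had 0 counts in replicates 1 and 2 and changed by -2.66 ± 0.83 (adjusted p = 0.056), and Bmpr2 changed by -2.02 ± 0.66 (adjusted p = 0.067). In replicate 3 Acvrl1 was 10.04 and Bmpr2 10.20, the highest 6 hr value of each. Without that library Smad7 and Acvrl1 passed as lower by 7.08 and 4.52, Bmpr2 passed as lower (adjusted p = 0.00021, edgeR), and Tgfbr2, at 1.56 with all libraries, passed as higher (adjusted p = 0.028). Acvrl1 and Smad7 also passed as lower under RLE scaling (adjusted p = 0.036 and 0.047, edgeR). Tgfbr2 also passed, at 2.37, without control 4. At 24 hr, with 2 libraries, 0 of 10 members passed, where 0.363% of all genes were higher and 0.0117% lower. At 48 hr 0 passed, where 0.428% were higher and 0.17% lower, and at 72 and 168 hr 0 passed, where 0.193% and 0.0117% of all genes did. At an unadjusted p under 0.05, 2, 3, 3 and 0 members were lower at 24, 48, 72 and 168 hr, and DESeq2, which gave an adjusted p for 8 of the 10 members, called 0, 3, 2 and 0 lower and limma-voom 0 at each time. Smad6 at 48 hr was at 3.30 to 7.82, with a change of -2.06 ± 0.60 (adjusted p = 0.13, edgeR).

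Whether the responses differed between tissues was tested as an interaction in 1 fit of all 3 tissues. Tissues of the same mouse, as read from file names, were treated as independent in it. No member passed the test of a different response in brain and heart at 6 hr, where 0.636% of all genes did, or at 48 hr, where 0.463% did. At an unadjusted p under 0.05 this was 1 member and 0, and by DESeq2 and limma-voom 0. For Eng at 6 hr, the brain change was above that of heart by 1.26 ± 0.59 (adjusted p = 0.39, edgeR), and by 1.85 without the 6 hr libraries of series 1 (adjusted p = 0.056), so the fall called in heart and not in brain was not shown to differ. Between brain and lung at 6 hr 4 members differed, where 13.3% of all genes did, and between lung and heart 4 differed, where 18.1% did. Id3 had the largest of these differences, 2.34 ± 0.54 for brain against lung (adjusted p = 0.0024, edgeR) and -2.64 ± 0.54 for lung against heart (adjusted p = 0.00052). Both passed under all 11 alternatives that were fitted for them and with any 1 library left out.

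The other differences with lung at 6 hr were less firm. Bmpr2 differed by 1.46 ± 0.45 between brain and lung and by -1.70 ± 0.46 between lung and heart, Smad6 by 1.85 ± 0.64 between brain and lung, and Acvrl1 by -1.53 ± 0.55 between lung and heart. With at least 20% of reads on genes none of them passed, and Bmpr2 then differed by 0.61 and -0.87. Tgfbr2 differed by -1.86 ± 0.63 between brain and lung and by 2.14 ± 0.64 between lung and heart, and both turned direction in that fit, to 1.42 and -1.09. Without lung 6 hr replicate 1 they were -0.75 and 1.12 and did not pass. Without lung 6 hr replicate 3 Bmpr2 differed by 2.73 and -2.91, Acvrl1 by 3.17 and -3.54 and Smad7 by 6.16 and -5.57, all past the threshold. The difference of Bmpr2 from brain did not pass without any 1 of the other 3 lung libraries at 6 hr or lung control 3, and that from heart without lung control 3. Of 18 fits with 1 library left out, those of Tgfbr2 and Smad6 for brain and lung passed in 8 each and that of Acvrl1 in 5. At 48 hr Smad6 differed between brain and lung by 2.50 ± 0.57 (adjusted p = 0.0057, edgeR), where 3.54% of all genes did, and Bmpr2 between lung and heart by -1.66 ± 0.42 (adjusted p = 0.027), where 1.13% did. The former passed in all 21 fits with 1 library left out and the latter in 12.

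The wider pathway was followed with 68 more genes in 9 lists, of which 65 were tested in brain, 66 in lung and 62 in heart. In heart at 6 hr 18 of 62 were higher and 13 lower, where 22.4% and 20.3% of all genes were. Without replicate 5 this was 21 and 19, where 27.8% and 30.5% were. Of the ligands, which with Bmp6 and Tgfb1 make 12 tested, Bmp2 was higher by 3.47 ± 0.55, Bmp4 by 2.53 ± 0.59, Inhbb by 4.54 ± 0.88 and Inhba by 1.68 ± 0.59, and Tgfb3 was lower by 1.44 ± 0.38, 5 genes named after their values were seen. Without replicate 5 these changes were 3.90, 2.91, 4.97, 1.97 and -2.50, and all 5 passed. The type I receptor gene Acvr1b was higher by 1.37 ± 0.29 (adjusted p = 0.00091, edgeR), at 4.81 to 6.38 against 4.09 to 4.75 with no overlap. Skil, which encodes the SMAD co-repressor SnoN, was higher by 1.08 ± 0.25 (adjusted p = 0.0019), at 6.85 to 7.77 against 5.73 to 6.51. These 2 are the only wider genes called in heart at 6 hr whose libraries did not overlap the controls, replicate 5 included, and without it they were higher by 1.61 and 1.21. Latency and activation genes, which hold and release TGF-beta, were higher for 5 and lower for 3 of 11, and targets higher for 1 and lower for 3 of 11.

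At 24 hr in heart 8 wider genes were higher and 7 lower, where 9.07% and 7.11% of all genes were. Inhbb, which encodes the beta-B subunit of activin and inhibin, was at 6.69 to 9.50 against 2.48 to 3.38, higher by 4.00 ± 0.90 (adjusted p = 0.0065, edgeR). Hey1, a transcriptional repressor induced by Notch and by BMP9, was at 2.47 to 3.87 against 7.05 to 7.34, lower by 3.79 ± 1.03 (adjusted p = 0.019, edgeR), which did not pass without 24 hr replicate 1 or 2. At 48 hr 2 were higher and 1 lower, where 3.08% and 1.11% of all genes were.

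In brain, of 65 wider genes, 6 were higher and 1 lower at 6 hr, where 4.21% and 2.23% of all genes were, and 9 and 9 without replicate 6, where 7.63% and 6.71% were. At 24 hr this was 9 and 4, where 6.52% and 4.66% were, and at 48 hr 7 and 7, where 8.11% and 6.12% were. At 24 hr Lrrc32, which encodes GARP, a protein that holds latent TGF-beta on the cell surface, was higher by 2.47 ± 0.52 (adjusted p = 0.0039, edgeR), at 6.90 to 8.90 against 4.54 to 5.59. Fstl1, which encodes a secreted glycoprotein that binds BMPs, was higher by 2.41 ± 0.57 (adjusted p = 0.0089, edgeR), at 8.97 to 11.25 against 6.24 to 8.03. In the receptor lists at 24 hr, 1 of 7 type I receptors and 1 of 4 type II receptors were higher, the latter Tgfbr2 itself, and 0 of 5 co-receptors passed, lists too small to read against the 6.52% of all genes that were higher.

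In lung 4 wider genes were higher and 4 lower at 6 hr, where 2.56% and 2.27% of all genes were, 0 of 66 passed at 24 hr, and 1 was higher and 2 lower at 48 hr. At 6 hr Hey1 was at -3.35 to 5.82 against 8.66 to 9.49, lower by 4.98 ± 0.88 (adjusted p = 0.0020, edgeR), and Tmem100, an ALK1-dependent endothelial gene, was lower by 4.80 ± 1.07 (adjusted p = 0.0095). Bmp4 was at 3.74 to 6.07 against 6.98 to 8.67, lower by 3.45 ± 0.68 (adjusted p = 0.0041, edgeR). With Id3 and Hey2, Hey1 and Tmem100 made up 4 lower of 11 targets in lung, where 2.27% of all genes were lower, and the median change of the targets was -0.88 against -0.42 over all genes. These calls rest on the same thin 6 hr libraries as those of Id3 and Smad6, and none of the 3 with values passed with at least 20% of reads on genes.

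**Figure D5:**
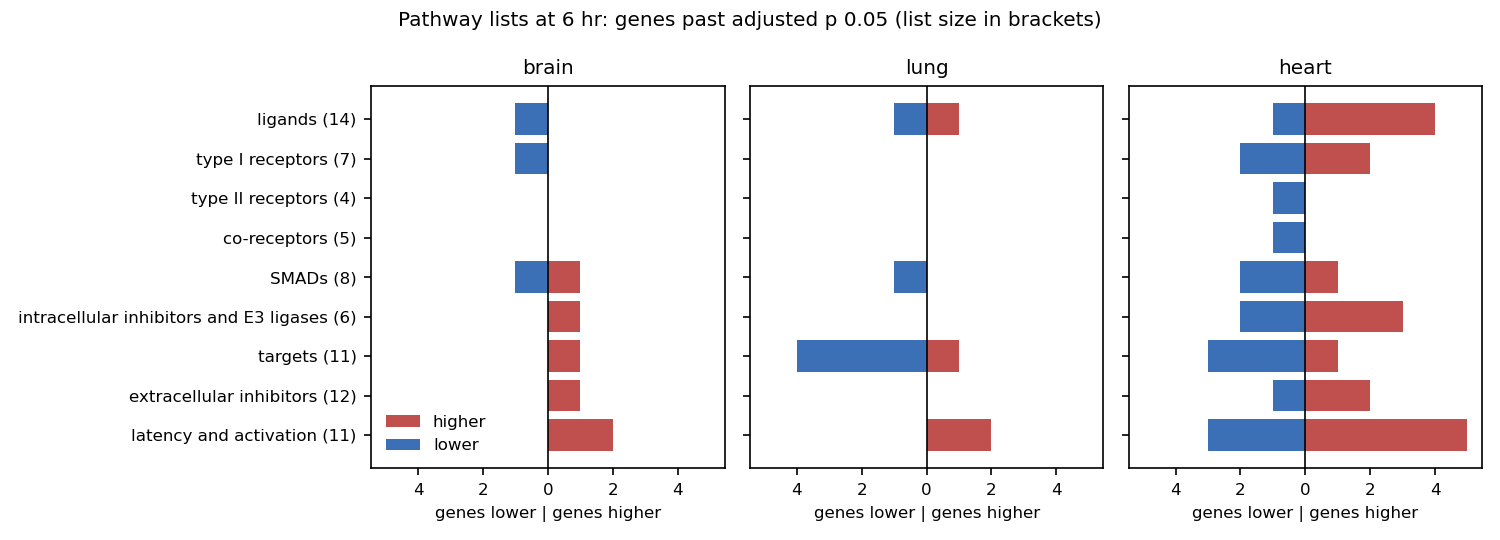
Number of genes of each pathway list (horizontal axes) that were higher (to the right) or lower (to the left) at 6 hr than at 0 hr in brain, lung and heart, by edgeR with an adjusted p under 0.05. In heart 18 of 62 wider genes were higher and 13 lower, against 6 and 1 of 65 in brain and 4 and 4 of 66 in lung.

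Over the 18 groups of tissue and time, the mean levels of some members followed each other. Pearson's r between group means was 0.926 for Bmpr2 and Smad6, 0.893 for Eng and Tgfb1, 0.874 for Acvrl1 and Bmpr2, and -0.70 for Acvrl1 and Tgfbr2. Groups of a tissue share its baseline level, so these values describe the order of the tissues as well as the course after LPS. In lung at 6 hr the means of Smad7 (0.63, SD 4.60), Tgfb1 (1.73, SD 4.01) and Bmp6 (2.98, SD 4.65) include libraries with 0 counts. The part of that group in the correlations given here was not tested. Of 8972 genes searched, the most alike were B2m for Tgfbr2 (r = 0.981), Cbfb for Tgfb1 (0.973), Zbtb1 for Smad7 (0.972) and Aaed1 for Bmp6 (0.970). For the receptors and co-receptor these were Topbp1 for Eng (0.954), Ehd4 for Bmpr2 (0.953) and Tnfsf12 for Acvrl1 (0.948), and for Smad6, Id3 and Id1 they were Hes1 (0.937), Sirt1 (0.932) and Sec23b (0.856).

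The exons of Acvrl1, Eng and Bmp6 overlap a gene on the opposite strand over 127, 61 and 224 bases, with Gm16031, Fpgs and Txndc5 respectively. Whether reads were counted by strand was not given in the sources used here, so reads in those stretches cannot be assigned with certainty. The genes lie on mm10 at chromosome 15 101128522 to 101145336 (Acvrl1), chromosome 2 32646595 to 32682669 (Eng), chromosome 13 38345107 to 38500302 (Bmp6), chromosome 4 136143497 to 136145755 (Id3) and chromosome 9 63953076 to 64022059 (Smad6), by GENCODE M21. All values are of whole genes, with exons, UTRs included, summed.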

How the data were processed

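Ribosome-bound RNA of RiboTagEC brain, lung and heart was sequenced. Per the labels, the authors aligned reads with STAR 2.4.2 to mm10 and counted them per gene with HTSeq 0.6.1. The deposited values are raw counts per gene and sequencing run, without normalization. The annotation release and the strand setting were not given in the sources used here. The 5 rows of each file that name no gene served as the remainder when the share of reads on genes was computed.

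The 217 runs were summed to 98 libraries by tissue, time and replicate, and libraries under 3% of reads on genes were left out. Those 18 are all of library series 3, a pattern of the deposited file names. Library series, which is not a labelled batch, was a covariate. Series 4 held no 0 hr library in any tissue, so no within-series difference could be given for it. Replicates are separate samples by their labels, and p-values measure only the spread between them. The report gives the range of counts per library by tissue, and the SE of each change carries the spread between replicates.

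Genes were filtered with filterByExpr and libraries scaled by TMM in edgeR 4.0.16 (R 4.3.3). Quasi-likelihood F tests were two-sided and adjusted by Benjamini-Hochberg over all genes, with a threshold of 0.05. Each time was compared with 0 hr within a tissue, so these comparisons share controls, tissues were compared at 0 hr, and responses were compared as interactions in 1 fit. The SE of each log2 fold change was derived from its F statistic (absolute change over root F). Levels of single genes were expressed as log2 CPM on TMM-scaled library sizes, adding a prior count of 2, and log2 FPKM was used only between genes. Summed marker levels were CPM over the counts on genes, without TMM scaling, so the 2 scales differ. Scripts were tested on simulated data. Further steps used Python 3.11.15, pandas 2.3.3, numpy 2.4.6 and matplotlib 3.10.9.

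The members and the pathway lists were chosen with earlier results of these data known. Of the lists, the genes named with full values are, per tissue at 6 and 24 hr, up to 3 with the largest absolute log2 fold change past the threshold, no overlap between libraries and a mean log2 CPM of at least 3 in the higher group. No gene passed that rule in brain at 6 hr or lung at 24 hr. A gene that the rule named is not reported here. Genes most alike were the 2 with the highest Pearson correlation over 18 group means, of which the first is given. Promoter windows are from RefSeq on GRCm38.p6 and were at hand for 7 members. No protein sequences were used here.

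Alternatives were DESeq2 1.42.0, limma-voom (limma 3.58.1), RLE scaling, no low-count filter, no library series, a replicate block, the mouse read from file names as a block at 0 hr, all libraries, at least 1000000 counts, each library left out, and, added after seeing the data, fits without the 6 hr libraries of series 1 and with at least 20% of reads on genes. Leaving out library series 3 gives the same fit as the main one. Whole-tissue RNA-Seq and single-cell data were not used here.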

Additional observations from a re-analysis of the deposited data

Results flagged for a closer look

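Within groups of 4 to 6 libraries, 1 library stood far from the rest of its group in 13 of 170 groups tested with Dixon's criterion, and chance alone gives about 1 in 20. In lung at 0 hr these were Eng at 10.19 and Tgfbr2 at 6.01 log2 CPM in replicate 4 and Id1 at 9.83 in replicate 3, each the highest of its group. In lung at 6 hr they were Bmpr2 at 10.20 in replicate 3, the highest, and Id3 at 5.86 and Smad6 at 4.06 in replicate 1, the lowest. At 168 hr the lowest lung library for Smad6, replicate 1, was at 7.48. In brain Acvrl1 was highest in 24 hr replicate 1 at 7.99 and Bmp6 lowest in 168 hr replicate 1 at 6.96. In heart Acvrl1 was highest in 6 hr replicate 5 at 8.42, the library that resembled 0 hr, and lowest in 72 hr replicate 1 at 7.90. Bmp6 in heart was lowest in 72 hr replicate 5 at 7.55 and in 168 hr replicate 2 at 7.24.

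The response to LPS differed between tissues in 10 tests of the difference itself by edgeR, as differences of log2 fold changes. At 6 hr, brain against lung differed by 2.34 for Id3, -1.86 for Tgfbr2, 1.85 for Smad6 and 1.46 for Bmpr2. Lung against heart at 6 hr differed by -2.64 for Id3, 2.14 for Tgfbr2, -1.70 for Bmpr2 and -1.53 for Acvrl1. At 48 hr brain against lung differed by 2.50 for Smad6, and lung against heart by -1.66 for Bmpr2. In the fit limited to libraries with at least 20% of reads on genes, 1 lung library remains at 6 hr, and the difference of Tgfbr2 turned direction.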

How the results depend on the processing

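Member calls were counted over the 5 times after LPS in each tissue (brain 4 higher and 4 lower, lung 0 and 2, heart 2 and 4), for each pair at 0 hr (7 each), and for differences in response (at 6 hr 4 for brain and lung, 0 for brain and heart and 4 for lung and heart, at 48 hr 1, 0 and 1). The cause of each change below was not tested, except that settings with fewer libraries have fewer samples. With DESeq2, lung had 1 higher and 8 lower calls and brain against lung at 48 hr 2. With RLE scaling or limma-voom, lung had 4 lower calls. With all libraries, lung had 0 lower calls, the pairs at 0 hr had 4, 3 and 4, and the differences of lung from brain and heart had 1 and 1 at 6 hr and 0 and 0 at 48 hr. With at least 1000000 counts, lung had 0 lower calls and brain against lung at 48 hr had 2. With at least 20% of reads on genes, lung had 1 lower call, brain against lung 2 at each time, and lung against heart 1 at 6 hr and 2 at 48 hr, while Tgfbr2 reversed at 6 hr, to 1.42 for brain against lung and -1.09 for lung against heart. Without library series, brain had 2 higher and 2 lower calls, lung 4 lower, and brain against lung at 6 hr 2. With no low-count filter, brain had 7, lung 6 and heart 8 lower calls, and lung against heart had 7 at 6 hr and 2 at 48 hr. Without the 6 hr libraries of series 1, lung had 0 and heart 10 lower calls, and brain against lung had 1 at 6 hr and 2 at 48 hr. Leaving out each library in turn gave 1 to 5 higher and 3 to 5 lower calls in brain, 0 to 1 and 0 to 7 in lung, 1 to 3 and 3 to 6 in heart, 6 to 9, 6 to 7 and 7 to 9 for the pairs at 0 hr, 1 to 7 and 1 to 8 for lung against brain and heart at 6 hr, 1 to 3 and 0 to 3 at 48 hr, and 0 to 0 for brain against heart. Tgfb1 at 0 hr for brain against lung turned from -0.28 to 1.12 with the mouse as a block and to 1.06 without lung replicate 4, and ran from -0.60 to 1.06 over the libraries left out.

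With a replicate block, brain had 2 higher calls, lung 6 lower calls, and brain against lung at 6 hr 2, and no other count moved by over 1.5 times. Bmp6 in brain at 24 hr did not pass with it. The numbers do not pair all samples, since same-numbered libraries of other tissues at a time correlated by more than 0.1 in their deviations in 53 of 73 pairs, and of other times in 59 of 151. Libraries of other tissues from the same mouse by file name correlated by more than 0.1 in 59 of 74 pairs. The interaction fits and the main fits between tissues at 0 hr had no mouse term, so this pairing was not modelled there. It was modelled only in the alternative with the mouse as a block at 0 hr. Lung depth limits the 6 hr results, where replicate 4 held 0 to 7 counts per member.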
